A study of Mus musculus with 26 samples.

Results

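Mitochondrial complex I is the first enzyme of the respiratory chain, and most of its subunits are made from nuclear genes. The 33 genes described here are the rows of the deposited count tables whose symbols are Ndufa, Ndufab, Ndufb, Ndufc, Ndufs or Ndufv followed by a number. They stand among 19549 rows. Another 4 subunits, Ndufa1, Ndufa2, Ndufa13 and Ndufb11, are held in rows that the authors joined with an overlapping gene, and were left out. None of the 7 subunits encoded in mitochondrial DNA has a row in the tables. 1 member goes against the name: Ndufa4 was named for complex I but is found in complex IV (cytochrome c oxidase), and it is given apart from the others.

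Complex I takes electrons from NADH, passes them along a chain of iron-sulphur clusters to ubiquinone and pumps protons across the inner mitochondrial membrane. Its matrix arm holds the N module, where NADH is oxidised, and the Q module, where ubiquinone is reduced, and its membrane arm is divided into a proximal and a distal part. In macrophages, complex I is known as a source of reactive oxygen species and as a point where oxidative and glycolytic states differ. Because the subunits come from many nuclear genes and must be fitted together in fixed proportion, the share of each mRNA on ribosomes bears on how much of each protein is made.

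The libraries came from macrophages of mouse mammary tumours. PyMT tumour cells had been placed in a mammary gland of female FVB mice aged 5 to 7 weeks, with no other genotype or treatment named in the labels, and 13 tumours were taken and weighed. Cells that were CD11b+, F4/80+ and Ly6G- were sorted in the presence of cycloheximide, which holds ribosomes in place on mRNA. Polysome mRNA is the RNA that sedimented with 3 or more ribosomes, and total mRNA came from about 10% of the same sorted cells, so each tumour gave 1 library of each kind (26 SmartSeq2 libraries, a full-length method that does not mark strand). The tumours were split at 1000 mg into 5 large tumours, of 1504 to 2245 mg, and 8 small tumours, of 467 to 841.8 mg. The labels give 6 of the tumours as experimental batch 2 (large replicates 3 to 5 and small replicates 6 to 8) and 7 as batch 1 (large replicates 1 and 2 and small replicates 1 to 5). In batch 2 the titles also name the small tumours ER and the large tumours LR, which the labels do not explain, so size and this label cannot be told apart there. The injected cells are 1 tumour model in 1 strain.

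Polysome libraries held 7034173 to 28257436 counts and total libraries 18018519 to 55609113. Every one of the 33 genes was counted in every library, with a lowest count of 20 (Ndufab1, polysome). Summed macrophage markers (8 of 8 detected) were 1360 to 19910 CPM (counts scaled to a common library size) in polysome libraries and 6176 to 48030 CPM in total libraries. Small replicate 7 stood apart from the other tumours: it had the lowest macrophage sum in both RNA sources, and mammary epithelial markers at 1116 CPM in its polysome library and 4133 CPM in its total library, the highest of all. Without it the macrophage sums began at 6939 CPM in polysome libraries and at 14360 CPM in total libraries, and the epithelial sums ended at 417.9 CPM and 762.7 CPM. Calls of members that were lost without it are given beside them, by name or by count. Neutrophil markers, which the gate should remove, summed to 45.8 to 473 CPM in polysome libraries and 29.9 to 194 CPM in total libraries. In sorted bulk samples, fewer cells of a type and less RNA per cell cannot be told apart.

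The start codons of these mRNAs are shown because ribosomes begin there and because many of them share 1 word of sequence. AAGATGGCG, in which ATG is the start codon itself, stands at the start codon of 7 of 33 members (21.2%). Among 21542 protein-coding genes it was counted anywhere from 9 bases before the start codon to 9 after it, and found in 321 (1.49%). A start codon followed directly by GCG is found in 15 of 33 members (45.5%), against 1602 of the same 21542 genes (7.44%). The windows below, of 6 of these members, run from 9 bases before the start codon to 9 after it, 5′ to 3′, in the GENCODE vM21 transcript on GRCm38 (mm10), and capitals mark the shared word.
Ndufa6, chr15:82354217-82354237, minus strand: ctcggcAAGATGGCGgccgcg
Ndufa9, chr6:126849101-126849121, minus strand: tgggagAAGATGGCGgccgcc
Ndufc1, chr3:51408919-51408939, minus strand: cggaacAAGATGGCGccgtcc
Ndufs4, chr13:114388045-114388065, minus strand: tacaggAAGATGGCGgcggtc
Ndufs6, chr13:73328435-73328455, minus strand: accggcAAGATGGCGgcggtg
Ndufs7, chr10:80249467-80249487, plus strand: gaggccAAGATGGCGgcgctg

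Members without the word that stood at either end of the comparison of polysome with total mRNA are shown next, with the start codon in capitals. Ndufs1, Ndufv2, Ndufa7, Ndufa11, Ndufb2 and Ndufa3 each begin in a different context. The windows of Ndufs1 and Ndufa3 cross an exon junction, so their coordinates span an intron.
Ndufs1, chr1:63170898-63176589, minus strand: aaagccatcATGttaaggata
Ndufv2, chr17:66101454-66101474, minus strand: taccccgccATGttctccttg
Ndufa7, chr17:33824621-33824641, plus strand: ggaaggaatATGgcgtccgct
Ndufa11, chr17:56717831-56717851, plus strand: cagctaggtATGgcgatggtg
Ndufb2, chr6:39592606-39592626, plus strand: cttgctagtATGtctgcgctc
Ndufa3, chr7:3617389-3617618, plus strand: aagaacaagATGgccgggaga

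Complex I mRNAs differed among themselves in polysome association, the level on polysomes relative to that in total mRNA. Of 33 members, 7 were higher in polysome than in total mRNA and 15 were lower, while 11 did not pass the test (edgeR quasi-likelihood test with tumour as a block, Benjamini-Hochberg adjusted p under 0.05 over all 12109 genes tested). Over all genes tested, 22.6% were called higher and 34% lower, so the members' shares are near the background. Their log2 folds ran from -2.03 to 1.40 with a median of -0.34, and the median of all genes was also -0.34. Ndufs1, Ndufv2 and Ndufa9 were lower on polysomes in 13 of 13 tumours, and Ndufa6 and Ndufa7 were higher in 13 of 13.

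**Figure D1:**
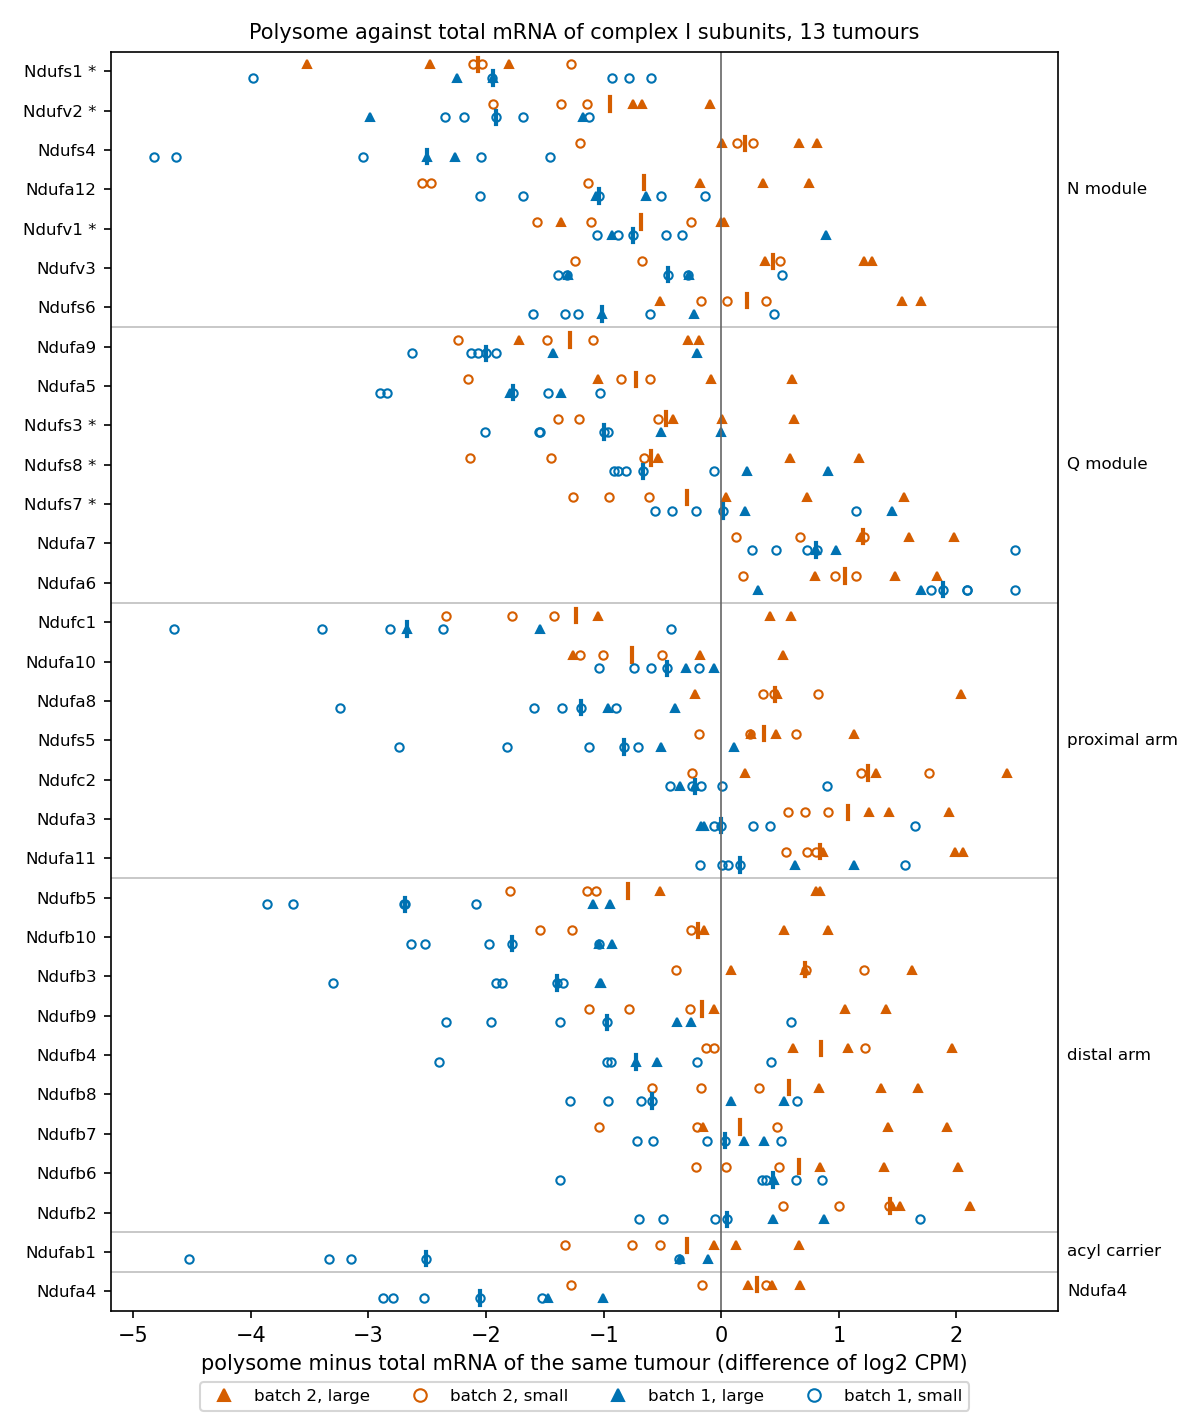
Difference of log2 CPM between polysome and total mRNA of the same tumour (x axis) for each member drawn (rows, by module; an asterisk marks a catalytic core subunit). Each symbol is 1 tumour (triangles large, circles small; orange batch 2, blue batch 1) and the short bar is the median of a batch: Ndufs1 lies left of 0 in all 13 tumours and Ndufa6 right of 0 in all 13, while Ndufs4 has batch 2 and batch 1 apart.

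The catalytic core, the subunits that bind NADH, flavin and the iron-sulphur clusters or form the ubiquinone site, held no member called higher over both batches. Of its 7 nuclear subunits none was called higher and 5 were lower (22.6% and 34% of all genes), with a median log2 fold of -0.66. These shares are also the background of the module and list counts of this comparison below. Ndufs1, the largest subunit and the holder of several iron-sulphur clusters, had 6.88, 17.6 and 46.3 CPM on polysomes (lowest, median and highest of 13) against 38.1, 76.3 and 114 CPM in total mRNA. The highest polysome library was above the lowest total library, yet within each tumour the polysome level was the lower one. Its log2 fold was -2.03 ± 0.25 (SE, adjusted p = 2.92e-07).

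Ndufv2, which carries an iron-sulphur cluster of the N module, had 19.2, 49.8 and 130 CPM on polysomes against 83.6, 141 and 222 CPM in total mRNA, a log2 fold of -1.41 ± 0.20 (adjusted p = 1.72e-06). The libraries of the RNA sources overlapped, and in no tumour was the polysome level of Ndufv2 the higher one. Ndufs3, a core subunit of the Q module without a cluster, was lower at -0.66 ± 0.17 (-0.49 in batch 2, where it did not pass, and -0.84 in batch 1), and Ndufv1, which binds NADH and flavin, was lower at -0.54 ± 0.20. The call of Ndufv1 was lost without small replicate 7 (-0.43, adjusted p = 0.0754), without large replicate 1 (-0.42, adjusted p = 0.0892) and without large replicate 3 (-0.40, adjusted p = 0.0958). With tumours not paired the fold was -0.49 (adjusted p = 0.0799).

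Of the core subunits 2 did not pass. Ndufs8, which holds iron-sulphur clusters of the Q module, had a log2 fold of -0.25 ± 0.19 and Ndufs7, which holds the last cluster before ubiquinone, 0.21 ± 0.20. All 7 core subunits had a negative fold in batch 2. In batch 1 Ndufs7 was at 0.50 and did not pass (adjusted p = 0.129). It was called higher in batch 1 with DESeq2 (0.63, adjusted p = 0.0409) and without large replicate 1 (0.77, adjusted p = 0.0439). Ndufs7 was also the core member most abundant on polysomes, at 148 CPM per kilobase of transcript, against 126 CPM per kilobase in total mRNA. Ndufs1 was the least abundant of the core in both, at 8.64 CPM per kilobase on polysomes and 29.5 CPM per kilobase in total mRNA.

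In the N module, 5 of 7 members were lower and none higher, with a median log2 fold of -0.80. Besides the core members these were Ndufa12 at -0.80 and Ndufs4 at -1.33 ± 0.26 (adjusted p = 0.000101). Ndufs4, an accessory subunit whose loss causes Leigh syndrome in people, had 2.82, 19.03 and 77.8 CPM on polysomes against 23.1, 62.3 and 106 CPM in total mRNA. That fold is a mean over unlike batches: it was 0.12 in batch 2 and -2.77 in batch 1. In the Q module, 2 of 8 members were higher and 4 lower, with a median of -0.45.

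The Q module also held the members with the highest and among the lowest folds. Ndufa6, a small accessory subunit that binds the acyl carrier protein, had 103, 299 and 476 CPM on polysomes against 70.4, 93.0 and 157 CPM in total mRNA, a log2 fold of 1.40 ± 0.20 (adjusted p = 1.75e-06). Ndufa7, a neighbouring accessory subunit, had 99.1, 188 and 643 CPM on polysomes against 50.0, 97.0 and 136 CPM in total mRNA, a log2 fold of 1.07 ± 0.20 (adjusted p = 6.05e-05). For both genes the lowest polysome library lay inside the range of total mRNA. Ndufa9, an accessory subunit beside the ubiquinone site, went the other way in every tumour, with 19.5, 48.8 and 164 CPM on polysomes against 68.5, 145 and 242 CPM in total mRNA and a log2 fold of -1.35 ± 0.19 (adjusted p = 1.75e-06). Ndufa5 was lower too, at -1.21 ± 0.22, with -0.69 in batch 2, where it did not pass, and -1.73 in batch 1.

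In the proximal membrane arm 3 of 7 members were higher and 2 lower, with a median log2 fold of -0.24. Ndufa11, which sits where complex I meets its partner complexes, had 81.5, 256 and 438 CPM on polysomes against 78.5, 137 and 234 CPM in total mRNA, a log2 fold of 0.90 ± 0.18 (adjusted p = 0.000177; higher in 12 of 13 tumours). Ndufa3 was higher at 0.71 ± 0.19 (adjusted p = 0.00236), in 9 of 13 tumours, with 1.13 in batch 2 and 0.29 in batch 1, where it did not pass. Ndufc1, a small single-span accessory subunit, had 5.04, 33.4 and 113 CPM on polysomes against 52.5, 84.9 and 227 CPM in total mRNA, a log2 fold of -1.62 ± 0.27 (adjusted p = 1.65e-05). Ndufc1 was lower in 11 of 13 tumours, with -0.93 in batch 2 (adjusted p = 0.0537) and -2.30 in batch 1. Ndufc2, its partner in the membrane, was called higher at 0.52 (1.11 in batch 2 and -0.07 in batch 1), a call that was lost without any 1 of small replicates 2, 3, 5 and 6 or large replicates 1, 3 and 5 (0.37 to 0.55, adjusted p = 0.0505 to 0.135). Ndufa10 was called lower at -0.49, a call that was lost without small replicate 7 or large replicate 1, 3 or 4 (-0.47 to -0.35, adjusted p = 0.0513 to 0.0996).

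In the distal membrane arm 2 of 9 members were higher and 2 lower, with a median log2 fold of 0.06. Ndufb2, a small accessory subunit of that arm, had 34.5, 119 and 254 CPM on polysomes against 45.0, 71.6 and 92.7 CPM in total mRNA, a log2 fold of 0.86 ± 0.20 (adjusted p = 0.000576; higher in 10 of 13 tumours). Ndufb5 was lower at -1.25 ± 0.19 and Ndufb10, one of the disulphide-bonded subunits on the intermembrane side, at -0.87 ± 0.19. Neither passed in batch 2: Ndufb5 was at -0.48 in batch 2 (adjusted p = 0.183) and -2.03 in batch 1, and Ndufb10 at -0.30 in batch 2 (adjusted p = 0.415) and -1.44 in batch 1. Ndufb2 was at 1.34 in batch 2 and at 0.38 in batch 1, where it did not pass. The acyl carrier protein Ndufab1 was lower at -0.98 ± 0.26, which did not pass when tumours were not paired (-0.73, adjusted p = 0.0528). In batch 2 Ndufab1 was at -0.32 and did not pass, against -1.64 in batch 1. Ndufa4 was lower at -0.89 ± 0.18, again a mean over unlike batches, at 0.05 in batch 2 (adjusted p = 0.910) and -1.83 in batch 1.

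Because the libraries do not mark strand, reads of a gene that overlaps another on the opposite strand cannot be told apart. This touches Ndufs1 (with Eef1b2), Ndufa11 (Vmac), Ndufa3 (Tfpt), Ndufb2 (Braf), Ndufb5 (Mrpl47), Ndufa9 (1700018A23Rik), Ndufab1 (Gm44986), Ndufs3 (Kbtbd4), Ndufs6 (Mrpl36) and Ndufb6 (Smim27). Ndufb8 (with Gm20538), Ndufb9 (Gm49356) and Ndufb2 (Gm42420) overlap an annotated gene on the same strand, where strand could not divide the reads either. Processed pseudogenes named after the member are annotated for Ndufa11, Ndufab1, Ndufb4 and Ndufs6, so the counts of these 4 are uncertain where reads could be divided between copies. Copies under other names were not searched for, so other members may be touched too.

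Per kilobase of transcript, the member with the highest level in total mRNA was Ndufb8, at 422 CPM per kilobase, followed by Ndufb7 at 297 and Ndufa4 at 277. On polysomes Ndufb8 was at 514 CPM per kilobase, Ndufa6 at 504 and Ndufa11 at 486. Ndufa6 thus stood 2nd on polysomes, while in total mRNA, at 178 CPM per kilobase, 8 members were above it. Levels of Ndufab1 (8.31 on polysomes and 13.6 in total mRNA) and Ndufb2 (30.6 and 15.9) rest on annotated transcripts of 3479 and 4371 bases and are low for that length.

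Proteins that build complex I or share the respiratory chain with it were set beside the members. Of 15 assembly factors, which join the subunits and are not part of the finished enzyme, none was higher on polysomes and 11 were lower, with a median log2 fold of -1.45. Tmem70 was at -2.28 ± 0.27 (adjusted p = 9.93e-08) and Ndufaf4 at -2.32 ± 0.37 (adjusted p = 1.05e-05). Of 4 complex II subunits 1 was higher and 3 lower, with Sdhc at 2.02 and Sdha at -3.23. Of 8 complex III subunits 2 were higher and 3 lower (Uqcrb at -1.55). Of 11 complex IV subunits 5 were higher and 3 lower (Cox6a1 at 1.96, Cox4i1 at 1.42). Of 14 ATP synthase subunits 4 were higher and 5 lower (Atp5g2 at 2.18, Atp5c1 at -1.51). Of 9 regulators of mitochondrial biogenesis 2 were higher and 5 lower (Pprc1 at 1.69, Tfb2m at -2.20). Whether the lists differ from the complex I members was not tested.

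The members' folds varied with the GC content and length of their coding sequence. Over the 33 members the polysome log2 fold had a Pearson r of 0.652 and a Spearman rho of 0.648 with the GC content of the coding sequence, and over 11089 tested genes with a coding length the same r was 0.378. The members share libraries and base composition, so this is a description. Coding length had an r of -0.444 and a rho of -0.369 with the members' fold, and an r of 0.097 and a rho of 0.094 with that of all genes. The members' r with coding length was -0.66 in batch 2 and -0.184 in batch 1, and that with GC content was 0.448 in batch 2 and 0.7 in batch 1. Of the 17 members with under 500 coding bases 7 were higher and 5 lower, with 7 higher and 1 lower in batch 2 and 3 higher and 6 lower in batch 1. Of all 945 tested genes of that length 204 were higher and 327 lower. These were 217 higher and 105 lower in batch 2, and 138 higher and 401 lower in batch 1. Of the 6 members over 1000 bases none was higher and 5 were lower. Median coding length was 363 bases in the members called higher, 570 bases in those called lower and 1377 bases over all tested genes.

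**Figure D2:**
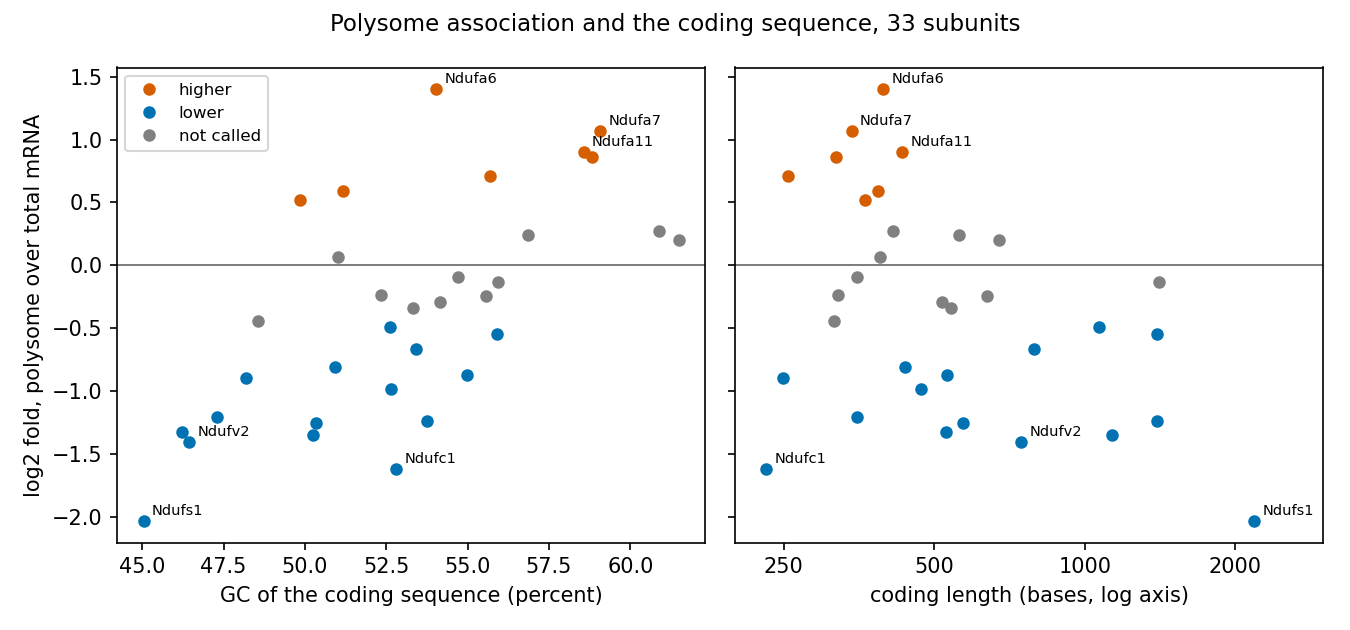
Log2 fold of polysome over total mRNA (y axis) of the 33 members against the GC content of the coding sequence in percent (left) and its length in bases on a log axis (right). Points are genes, orange where called higher, blue where called lower and grey where not called: all 7 higher members have under 500 coding bases, and Ndufs1 is the longest, has the lowest GC content and the lowest fold.

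Members with the start codon word were called in both directions. Of the 7 members with AAGATGGCG at the start codon 1 was higher (Ndufa6) and 4 were lower (Ndufa9, Ndufc1 and Ndufs4 among them), and their log2 folds ran from -1.62 to 1.40. Of the 26 other members 6 were higher and 11 lower. The median log2 fold was -1.24 with the word and -0.31 without it. Within batches these medians were -0.09 and 0.15 in batch 2 and -1.30 and -0.68 in batch 1. Whether the fold differs with the word was not tested.

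Polysome association was also read within each experimental batch. In batch 2, 7 members were higher and 5 lower (15.8% and 18.9% of all genes), with a median of 0.05. In batch 1, 3 members were higher and 16 lower (20.6% and 31.9% of all genes), with a median log2 fold of -0.72. Ndufa6, Ndufa7 and Ndufa11 were higher in both batches, and Ndufs1, Ndufv2 and Ndufa9 were lower in both. All 5 calls lower in batch 2 were of the matrix arm (Ndufs1, Ndufv2, Ndufa9 and Ndufa12 among them), and Ndufa12 was at -0.87 in batch 2 and at -0.74 in batch 1, where it did not pass. The batch 2 call of Ndufa12 (adjusted p = 0.0437) was lost without any 1 of small replicates 2, 3, 6 and 7 or large replicate 3 (-0.87 to -0.60, adjusted p = 0.0515 to 0.236) and under RLE or upper-quartile scaling, and it passed in batch 1 without small replicate 1, 5 or 6 and with limma. The batch 1 call of Ndufa11 (0.63, adjusted p = 0.0395) was lost without any 1 of small replicates 2, 3 and 5 or large replicate 2 (0.45 to 0.67, adjusted p = 0.0512 to 0.120) and with no filter on low counts. That of Ndufb9 in batch 1 (-0.72, adjusted p = 0.0498) was lost without any 1 tumour other than small replicate 5, and that of Ndufb6 in batch 2 (0.76, adjusted p = 0.0408) without small replicate 8 or large replicate 4 or 5.

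**Figure D3:**
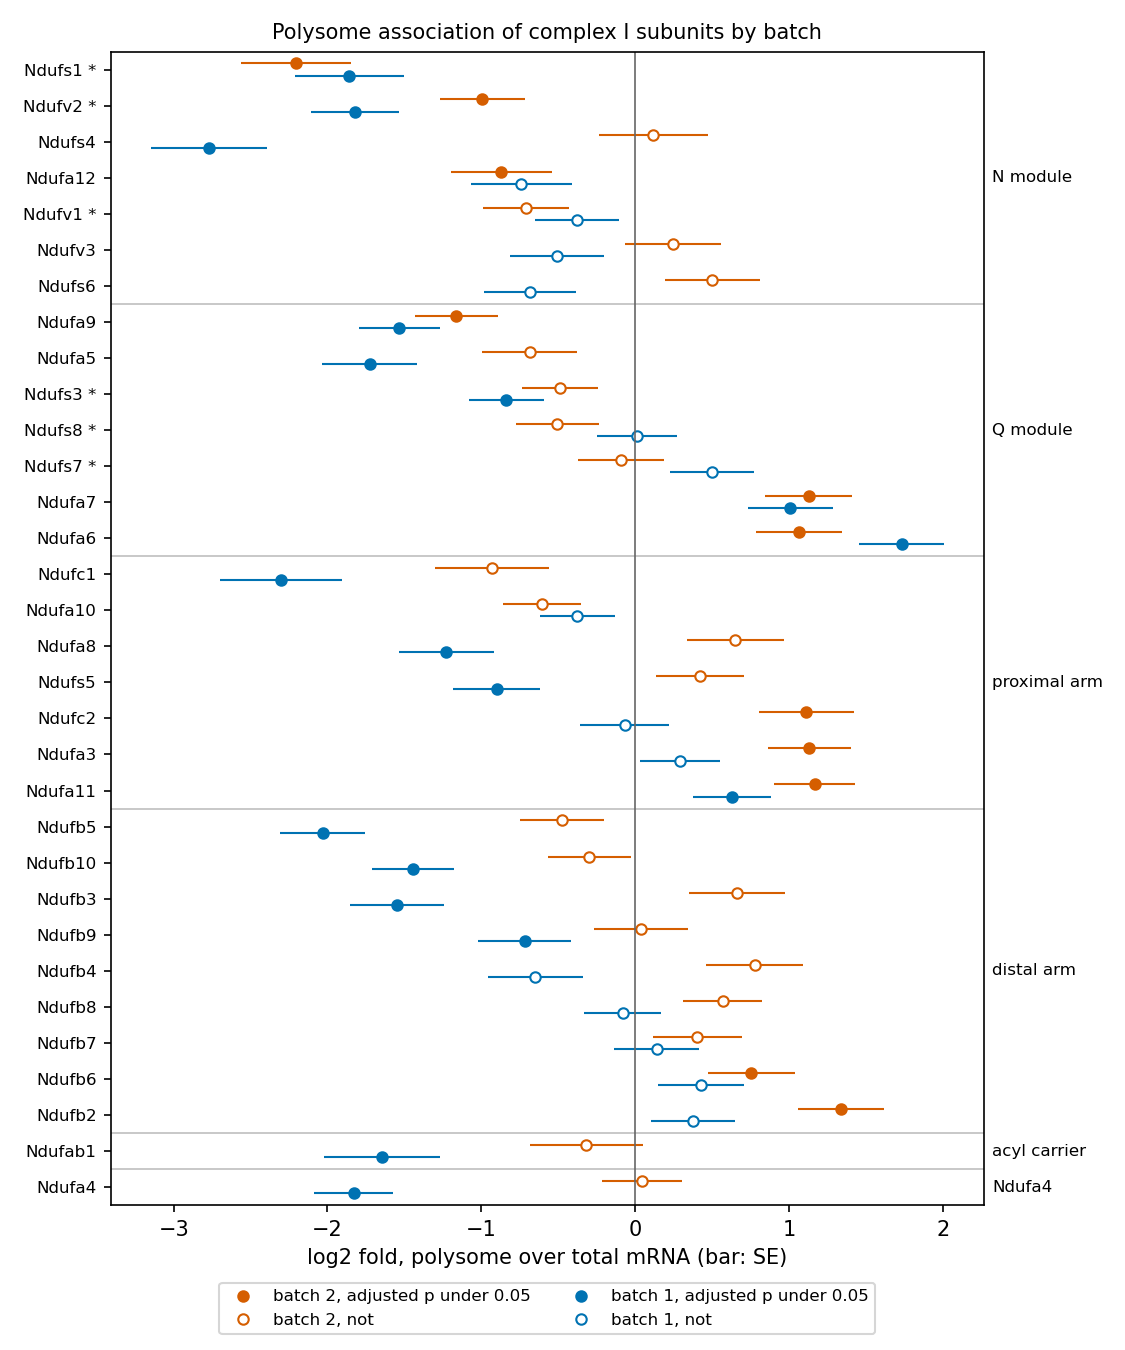
Log2 fold of polysome over total mRNA of each member drawn in batch 2 (orange) and batch 1 (blue), with its SE from the edgeR fit; filled points passed an adjusted p of 0.05 and an asterisk marks a catalytic core subunit. Most batch 2 points lie right of the batch 1 point of the same gene, most of all for Ndufs4, and the core members Ndufs1 and Ndufv2 lie left of 0 in both.

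The difference between batches was tested as a term of the same fit. It was called in 8 of 33 members, all with a higher polysome association in batch 2 than in batch 1 (10.5% of all genes were called in that direction and 6.95% in the other). The members' median difference was 0.76, against 0.26 over all genes and 0.90 over the 945 tested genes with under 500 coding bases. Of those 945 genes 269 were called with a higher association in batch 2 and 20 with a lower one. None of the catalytic core was called. Ndufs4 had 27.9, 54.2 and 77.8 CPM on polysomes in batch 2 (lowest, median and highest of 6) against 2.82, 11.5 and 19.03 CPM in batch 1 (of 7), which do not overlap. Its total mRNA was 23.1, 44.3 and 71.8 CPM in batch 2 and 44.8, 74.9 and 106 CPM in batch 1. The difference in association was 2.89 ± 0.52 (log2, adjusted p = 0.000415).

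Ndufb3, a small distal-arm subunit, had 28.8, 56.5 and 78.1 CPM on polysomes in batch 2 against 8.10, 21.9 and 29.7 CPM in batch 1, a difference in association of 2.21 ± 0.44 (adjusted p = 0.00103). Ndufa8, one of the disulphide-bonded subunits on the intermembrane side, differed by 1.88 ± 0.44 (adjusted p = 0.00422). For Ndufs4, Ndufb3 and Ndufa8 the polysome minus total differences of the batches did not overlap. Ndufa4, of complex IV, had 94.2, 159 and 262 CPM on polysomes in batch 2 against 22.01, 52.4 and 56.9 CPM in batch 1, a difference in association of 1.88 ± 0.37 (adjusted p = 0.000915).

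Ndufb5, Ndufb4, Ndufs5 and Ndufb10 made up the 8. The call of Ndufb10 was lost without any 1 of small replicates 2, 4, 5, 6 and 8 or large replicates 1, 2, 4 and 5 (0.97 to 1.24, adjusted p = 0.0518 to 0.0962). That of Ndufb4 was lost without any 1 of small replicates 4 and 7 or large replicates 1 and 2 (1.21 to 1.38, adjusted p = 0.0548 to 0.0937), and that of Ndufs5 without small replicate 4 or 6 (1.24 and 1.16, adjusted p = 0.0506 and 0.0860). The number of members called was 5 without small replicate 4 and 13 without small replicate 5. In those fits 1005 and 1206 of all genes were called with a higher association in batch 2, against 1266 in the main fit.

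The batches also differed within each RNA source. On polysomes 10 members were higher in batch 2 than in batch 1 and none lower (11.1% and 10.3% of all genes), and Ndufa5 had the largest difference, at 2.21 ± 0.32 (adjusted p = 0.000175). The count of members was 18 without small replicate 5, where 1394 of all 10910 genes were higher. Of the 885 genes with under 500 coding bases tested on polysomes 284 were higher in batch 2 and 33 lower. In total mRNA 6 members were higher and 1 lower, Ndufb4 at -1.25 (11.1% and 5.66% of all genes). That count was 1 higher and 0 lower without small replicate 6, 3 higher and 0 lower without small replicate 7, 3 lower without small replicate 8 and 5 lower without large replicate 4. The counts over all genes moved too, from 1292 higher and 660 lower in the main fit. They were 636 and 203 without small replicate 6 and 773 and 216 without small replicate 7. Lower calls over all genes were 880 without small replicate 8 and 1121 without large replicate 4. Macrophage marker sums were 1360 to 18330 CPM on polysomes in batch 2 (from 6939 CPM without small replicate 7) against 7922 to 19910 CPM in batch 1, and 6176 to 48030 CPM in total mRNA of batch 2 (from 19290 CPM without it) against 14360 to 27260 CPM in batch 1. Fibroblast marker sums (12 of 12 detected) were 870.5 to 6213 CPM on polysomes in batch 2 (to 1354 CPM without it) against 489 to 4868 CPM in batch 1. The part of these markers in the batch difference was not tested.

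Tumour size was then compared, which is the question the series names. In polysome mRNA 31 of 33 members had a positive log2 fold in large against small tumours, with a median of 0.69, where 49.4% of all 10933 genes were positive and their median was -0.01. In total mRNA 27 of 33 had a negative fold, with a median of -0.19 against -0.03 over all genes. None of these members passed the adjusted test of edgeR in either direction in polysome mRNA, in total mRNA or in polysome association (0% of all genes in each direction of each comparison). At an unadjusted p under 0.05 there were 13 members in polysome mRNA, 14 in polysome association and 0 in total mRNA. DESeq2 called 3 members higher in polysome mRNA (Ndufb5, Ndufb10 and Ndufs8), where it called 0.851% of all genes higher. It called 4 in association (Ndufb5, Ndufs8, Ndufab1 and Ndufs3), with 0.669% of all genes, and limma called no gene in either. Without small replicate 7, 29 of 33 members had a positive polysome fold, with a median of 0.60.

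**Figure D4:**
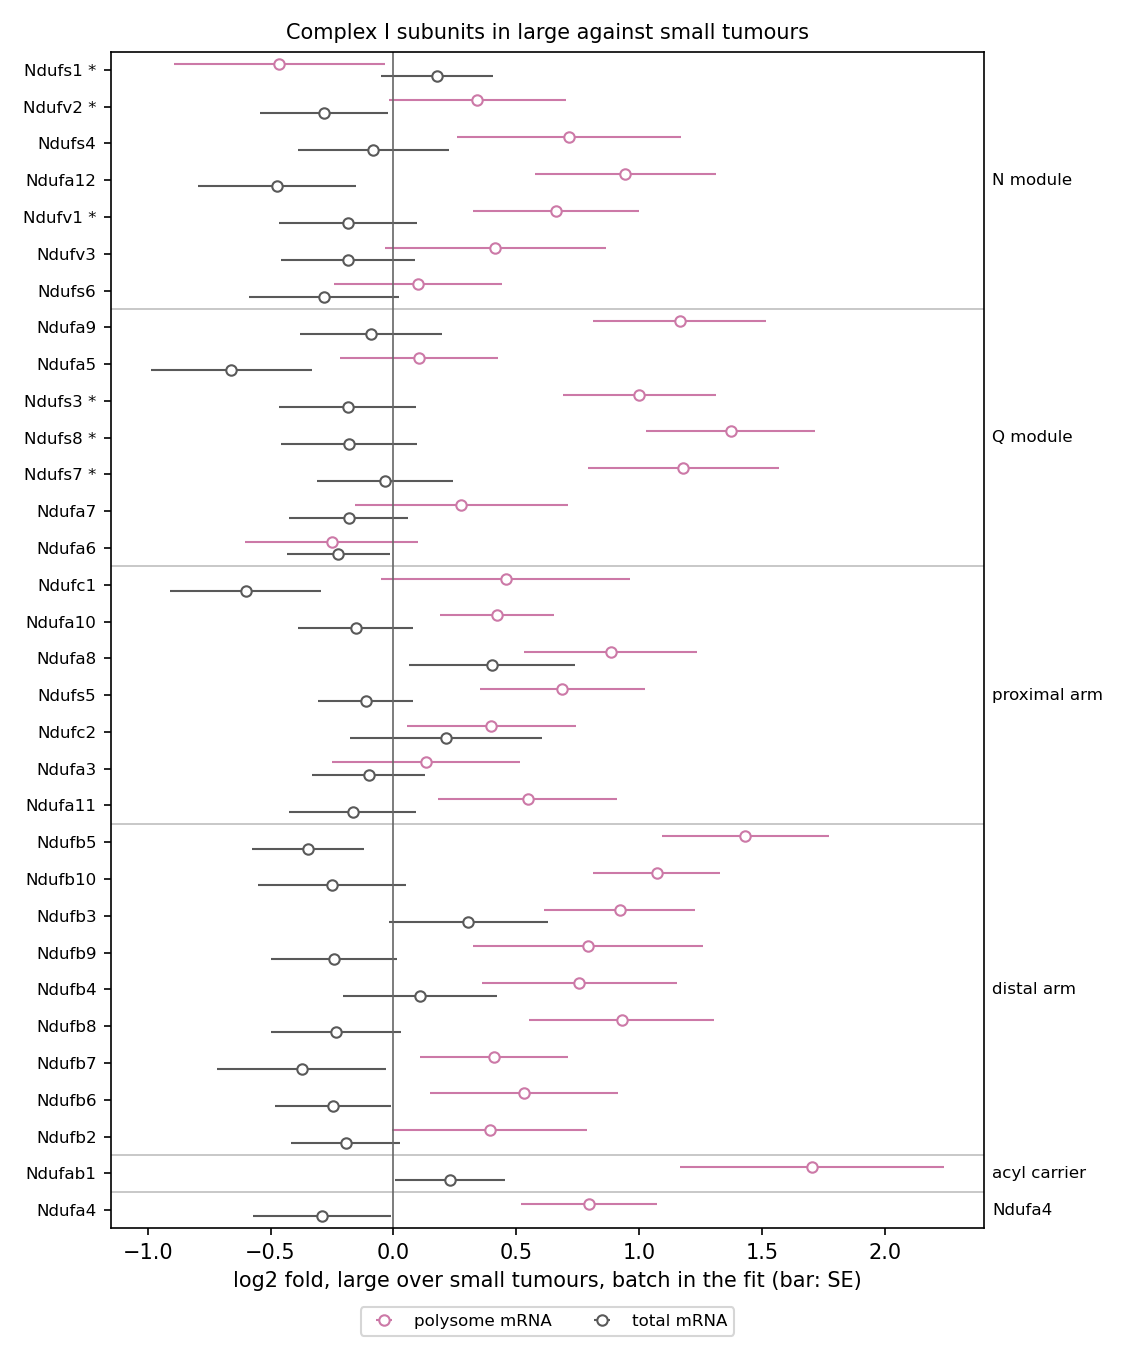
Log2 fold of large over small tumours for each member drawn in polysome mRNA (pink) and total mRNA (grey), with its SE from the edgeR fit with batch as a term. The pink points lie right of 0 except for Ndufs1 and Ndufa6, and most grey points lie at or left of 0; no point passed an adjusted p of 0.05.

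Ndufb5 had 126, 183 and 136 CPM on polysomes in large tumours of batch 2 against 73.9, 39.8 and 82.4 CPM in small tumours of batch 2. In batch 1 it had 47.9 and 48.6 CPM in large tumours against 6.79, 17.7, 7.31, 30.4 and 18.4 CPM in small tumours. Every large tumour was above every small tumour of its batch. The log2 fold was 1.43 ± 0.34 (adjusted p = 0.134), while in total mRNA it was -0.35 ± 0.23. Polysome association of Ndufb5 had the lowest p among the members, with a difference of 1.84 ± 0.39 between large and small tumours (adjusted p = 0.279).

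Ndufs8 had 190, 274 and 203 CPM on polysomes in large tumours of batch 2 against 96.2, 38.7 and 106 CPM in small tumours of batch 2. In batch 1 it had 121 and 299 CPM in large tumours against 49.3, 97.7, 67.8, 93.6 and 162 CPM in small tumours, and small replicate 5 was above 1 of the large tumours. Its log2 fold was 1.37 ± 0.34 (adjusted p = 0.139) and its difference in association 1.53 ± 0.39 (adjusted p = 0.300). Ndufb10 had 163, 156 and 106 CPM on polysomes in large tumours of batch 2 against 84.8, 54.5 and 65.0 CPM in small tumours of batch 2. In batch 1 it had 37.4 and 46.9 CPM in large tumours against 14.6 to 26.05 CPM in small tumours, again without overlap. Its log2 fold was 1.07 ± 0.26 (adjusted p = 0.134).

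Ndufab1 had 51.9, 62.7 and 34.8 CPM on polysomes in large tumours of batch 2 against 16.99, 20.3 and 14.1 CPM in small tumours of batch 2. In batch 1 it had 52.6 and 47.5 CPM in large tumours against 1.83 to 8.39 CPM in small replicates 1 to 4 and 52.5 CPM in small replicate 5. Without small replicate 5 the test called 3 members in polysome mRNA, where it called 0.357% of all genes higher: Ndufab1 at 2.38 (adjusted p = 0.0303), Ndufs7 at 1.48 (adjusted p = 0.0416) and Ndufs8 at 1.51 (adjusted p = 0.0477). The negative folds in polysome mRNA were Ndufs1 at -0.46 ± 0.43 and Ndufa6 at -0.25 ± 0.35. In total mRNA the lowest p values belonged to Ndufa5 at -0.66 ± 0.33, Ndufc1 at -0.60 ± 0.31 and Ndufb5 among negative folds and to Ndufa8 at 0.40 ± 0.34, Ndufab1 at 0.23 ± 0.22 and Ndufb3 at 0.31 ± 0.32 among positive ones (adjusted p = 0.865 to 0.904).

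Over the 33 members together, large tumours of batch 2 had 5880, 6364 and 5332 CPM on polysomes against 3628, 2969 and 3930 CPM in small tumours of batch 2. In batch 1, large tumours had 2717 and 3848 CPM and small tumours 1539, 2570, 2004, 2224 and 5189 CPM, with small replicate 5 above every other library of batch 1. In total mRNA, large tumours of batch 2 had 5466, 3796 and 2378 CPM against 5399, 4627 and 4067 CPM in small tumours, and the groups overlapped in both batches. A size by batch term called no member in polysome mRNA, total mRNA or association (5, 0 and 2 members at an unadjusted p under 0.05).

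**Figure D5:**
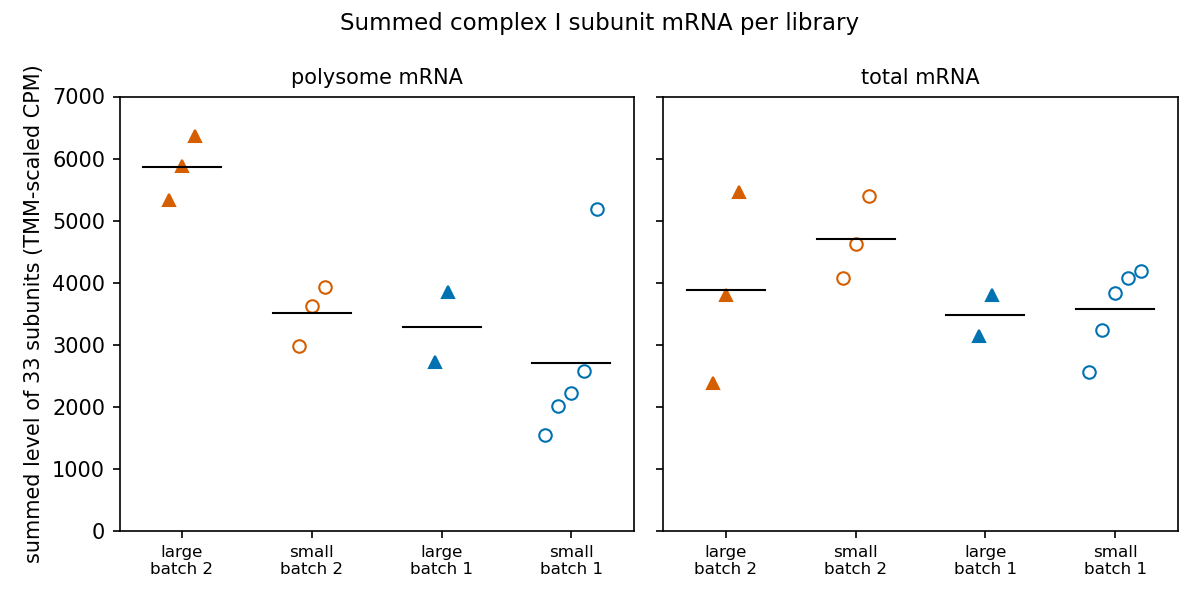
Summed level of the 33 members in each library, in CPM after TMM scaling, for polysome mRNA (left) and total mRNA (right), by size class and batch. Points are libraries and short lines are group means: on polysomes in batch 2 the large tumours (5332 to 6364 CPM) lie above the small tumours (2969 to 3930 CPM), and the other panels overlap.

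Member by member, every large tumour of batch 2 was above every small tumour of batch 2 on polysomes for 21 of 33 members (12.9% of all 10933 genes), and below for none (12.2% of all genes). In batch 1 every large tumour was above every small tumour for 6 members (6.2% of all genes) and below for 1, Ndufa6 (4.12% of all genes). In total mRNA no member was without overlap: large above small is found in 5.98% of all genes in batch 2 and 3.87% in batch 1, and below in 3.54% in batch 2 and 3.03% in batch 1. Without small replicate 7 the polysome count in batch 2 was 22 members above (17.9% of all genes) and 0 below (20.3%). Fitted alone, batch 2 gave a positive polysome fold in 32 of 33 members (median 0.79) and batch 1 in 22 of 33 (median 0.39).

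Other measures were set beside size in the same libraries. Macrophage marker sums on polysomes in batch 2 were 10930 to 18330 CPM in large tumours against 1360 to 7600 CPM in small tumours (6939 and 7600 CPM without small replicate 7). In batch 1 they were 10280 and 19910 CPM in large tumours against 7922 to 19390 CPM in small tumours. Fibroblast marker sums on polysomes in batch 2 were 909.4 to 1004 CPM in large tumours against 870.5 to 6213 CPM in small tumours. Without small replicate 7 the small tumours of batch 2 ended at 1354 CPM. In batch 1 the sums were 489 and 2084 CPM in large tumours against 1088 to 4868 CPM in small tumours. The fibroblast sums of the size classes thus overlapped in each batch, while the macrophage sums overlapped in batch 1 and not in batch 2. The 10 fibroblast genes tested all had a negative size fold on polysomes, with a median of -1.80 and none called. Mammary epithelial marker sums on polysomes were 109.9 to 417.9 CPM in large tumours against 38.01 to 1116 CPM in small tumours. Without small replicate 7 the small tumours ended at 345.3 CPM. Their median was then 135.5 CPM, against 193.3 CPM in large tumours. The fold was negative in 6 of 6 genes tested, in a fit that included small replicate 7. Of the 885 genes with under 500 coding bases tested in polysome mRNA 73.8% had a positive size fold, with a median of 0.35, and the median of the complex I members was 0.69. The part of the markers and of mRNA length in the size folds was not tested. Among the other lists, 8 of 15 assembly factors had a positive polysome fold, with a median of 0.00, 9 of 11 complex IV subunits, with a median of 0.43, and 12 of 14 ATP synthase subunits, with a median of 0.49. No gene of these lists passed the adjusted test.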

How the data were processed

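Per the file headers, each of the 26 deposited files holds counts per gene row and a TMM-scaled log2 column made by the authors. The log2 column was looked at and used in no test. The submitters' processing notes name HISAT, HISAT2, limma and mm10. No source used here gives the counting tool, its annotation or its use of strand ("not given in the sources used here"), and the authors joined overlapping genes into 830 rows. The raw counts were analysed with edgeR 4.0.16 in R 4.3.3 (low-count filter by RNA source and size class, TMM scaling, robust quasi-likelihood test, Benjamini-Hochberg adjustment over all genes tested, threshold 0.05). A fit of all 26 libraries had tumour as a block, RNA source, and RNA source by batch and by size class. Fits of the 13 libraries of each RNA source had size class and batch. SE is the fold divided by the square root of its F statistic. Levels are TMM-scaled CPM, and log2 CPM has a prior count of 1. Both RNA sources of a tumour come from the same sorted cells per the labels, so they were paired: the correlation of their deviations had a median of 0.249 within a tumour and -0.0167 between tumours. The test was run on simulated data with few changed genes and no tumour, batch or size effect. That run does not measure the error rate in these data, where many genes were called and the batches differed. The size limit of 1000 mg lies in the gap between the weights. Coding lengths, GC content and start codons come from GENCODE vM21 principal transcripts. Alternatives were other scalings and filters, DESeq2 1.42.0, limma 3.58.1, tumour weight, no block or batch term, each batch alone and each tumour left out.

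The members, gene lists and tests were chosen with earlier results of these data known. Values are given for the 5 called members of largest polysome fold in each direction, the 4 of lowest p between batches, the 3 of lowest p in each direction of each size comparison and the 7 core subunits. Depth limits the precision of low members. P-values measure the spread between tumours. Values of 1 member are not reported here and it is not drawn by name, though it is in every count and fit.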

Additional observations from a re-analysis of the deposited data

Results flagged for a closer look

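The polysome minus total difference (log2 CPM) of each named member was searched within each batch, size classes pooled, for a tumour far from the others. The summed CPM of the members was searched within each RNA source and size class, batches pooled. Together these made 48 groups. A tumour apart was found in 6, all of them differences of 1 member, and chance flags about 1 in 20 groups. Small replicate 5 of batch 1 was apart for Ndufa3 at 1.65 and for Ndufa7 at 2.50. Large replicate 2 of batch 1 was apart for Ndufa6 at 0.31 and for Ndufv1 at 0.89. Small replicate 1 was apart for Ndufa8 at -3.24 and small replicate 4 for Ndufb3 at -3.30.

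The difference in polysome association between batch 2 and batch 1 passed the test of the difference itself for 8 members. It was 2.89 for Ndufs4, 2.21 for Ndufb3, 1.88 for Ndufa4, 1.88 for Ndufa8, 1.56 for Ndufb5, 1.43 for Ndufb4, 1.32 for Ndufs5 and 1.15 for Ndufb10, all higher in batch 2.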

How the results depend on the processing

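Counts are members called out of 33. The counts over all genes moved with the settings too. In batch 1 alone 3 members were higher on polysomes, and in batch 2 alone 6 were lower and Ndufs4 turned to 0.14. Lower calls within batch 2 were 8 with DESeq2 and 8 with limma. Over all 12109 genes they were 2848 with DESeq2 and 2533 with limma, against 2284 in the main fit. Size called 1 member higher in association with no filter on low counts (Ndufb5) and 4 with DESeq2, which also called 3 in polysome mRNA. Lower calls in total mRNA between batches were 2 with a mean of at least 10 CPM, 4 with DESeq2 and 3 with limma. Over all genes these were 725 of 7932, 1329 of 11671 and 1104 of 11671, against 660 of 11671 in the main fit. With no replicate block, 6 members were higher and 14 lower on polysomes (2656 and 3610 of all 12109 genes), and 6 differed between batches. Leaving out 1 tumour at a time gave 6 to 7 higher and 13 to 16 lower on polysomes, 2 to 4 and 15 to 19 in batch 1, and 6 to 8 and 4 to 7 in batch 2. The batch difference called 5 (without small replicate 4) to 13 (without small replicate 5). Between batches, total mRNA gave 1 to 7 higher and 0 to 5 lower, and polysome mRNA 9 to 18 higher and 0 to 1 lower (1 without small replicate 1). Size called 0 to 3 higher in polysome mRNA (3 without small replicate 5), and 0 in total mRNA and association. The causes were not tested. Positive size folds on polysomes numbered 22 (batch 1 alone) to 32 (batch 2 alone). With no low-count filter the median polysome fold of all genes was -0.78, against -0.34. A size by batch term and the non-overlap counts and marker sums without small replicate 7 were added after seeing the data.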
